A study of Homo sapiens with 6 samples.

Results

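A set of 10 genes of the Notch pathway was followed: the receptors NOTCH1, NOTCH2 and NOTCH3, the ligand JAG1, the O-glucose arm enzymes POGLUT1, GXYLT1 and XXYLT1, the O-fucose arm enzymes POFUT1 and LFNG, and the target gene HES1. They were chosen around GXYLT1, selected on its rise in these same libraries, and are the rows of the deposited table that carry these 10 symbols among 57905 gene identifiers. The libraries came from A549 cells, a long-established line from a human lung adenocarcinoma, harvested at 24 h. In 3 samples the cells had been transfected with miR-19a, and in 3 samples with the negative control microRNA miR-NC. Both groups received 25 nM of microRNA with the same lipid reagent, so transfection is shared by all 6 samples. The line is a single tumour line, the microRNA was delivered from outside the cell, and the amount taken up was not measured here. Whether replicate samples were separate cultures is not stated in the labels, and p-values therefore cover only the scatter among these samples, part of which may be technical.

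Notch receptors are single-pass proteins whose long extracellular part is built of EGF-like repeats. Ligands such as JAG1 on a neighbouring cell trigger cleavage of the receptor, and the released intracellular part joins the DNA-binding protein RBPJ and switches on genes such as HES1. The EGF repeats carry sugars: POGLUT1 adds O-linked glucose, GXYLT1 or GXYLT2 adds a first xylose to that glucose, and XXYLT1 adds a second. On other sites of the repeats POFUT1 adds fucose, which LFNG extends with N-acetylglucosamine, a step known to shift which ligands a receptor answers to.

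Total counts over genes lay between 16323470 and 17957932 in miR-19a libraries and between 15699037 and 16652353 in miR-NC libraries. Of the 8 markers fixed for A549, 7 had a mean of at least 1 FPKM (counted fragments scaled for gene length and library total), and the exception was EPCAM at 0.763 FPKM in miR-19a and 0.603 FPKM in miR-NC. The fibroblast list summed to between 2.53 and 3.01 FPKM in miR-19a libraries and between 0.9 and 1.1 FPKM in miR-NC libraries, nearly all of it COL1A1 (2.57 FPKM in miR-19a and 0.903 FPKM in miR-NC), while DCN had 0 to 1 counts and COL1A2 0 to 4. The leukocyte list summed to between 2.5 and 2.93 FPKM in miR-19a libraries and between 1.68 and 2.01 FPKM in miR-NC libraries, mostly CD14 and ITGAM, with 0 to 2 counts of PTPRC and 0 of CD3E. The endothelial list stayed at or under 0.05 FPKM. The part of the COL1A1, CD14 and ITGAM differences in the results below was not tested, and the other defining markers of these cell types were at or near 0.

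Across the transcriptome, the edgeR quasi-likelihood test with Benjamini-Hochberg adjustment called 48.4% of 12452 tested genes at an adjusted p of 0.05, 24.9% higher and 23.5% lower in miR-19a. All 10 Notch pathway genes passed the filter on low values. With GXYLT1 left aside, 7 of the other 9 were called higher, 1 (NOTCH1) was called lower and 1 (POGLUT1) was not called. The median log2 fold change of these 9 genes was 0.33, and that of all tested genes was -0.00. The CPM (counts scaled to library size) of the 3 miR-19a libraries lay wholly to one side of the 3 miR-NC libraries for all 10 genes, which was so for 54% of all tested genes. Since the set was drawn up with these values known, the counts describe it and are no test.

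**Figure D1:**
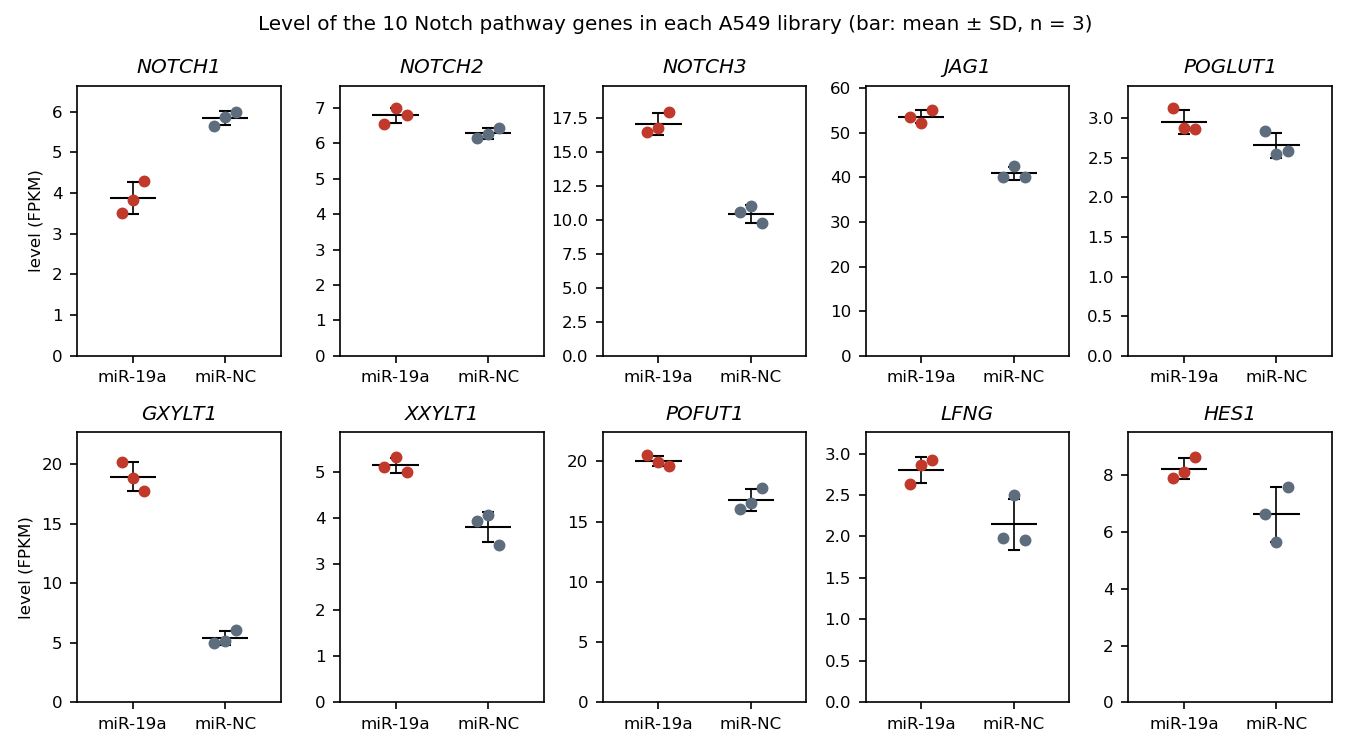
Level (FPKM, vertical axis, each from 0) of each gene in the 3 miR-19a and 3 miR-NC libraries, 1 point per library, with the mean and SD as bars (n = 3). GXYLT1 lies between 17.77 and 20.2 FPKM in miR-19a and between 5.01 and 6.09 FPKM in miR-NC, and NOTCH1 is the gene with lower points in miR-19a.

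GXYLT1 (ENSG00000151233, chr12:42081845-42144879, minus strand of GRCh38 in the GENCODE v29 annotation, as for the other genes), the xylosyltransferase that acts on the O-linked glucose, had 2472, 2427 and 2392 counts in the miR-19a libraries, against 626, 623 and 717 counts in the miR-NC libraries. This came to 143.9 ± 9.32 CPM in miR-19a and 40.7 ± 4.25 CPM in miR-NC (SD, n = 3 each). The log2 fold change was 1.82 (SE 0.055), or 3.53-fold, and ranked 13 among the rises of 12452 genes. The lowest miR-19a library stood far above the highest miR-NC library, and this rise is what selected the gene, so no test is given. In miR-NC cells GXYLT1 was in 7th place among the 10 genes by FPKM, with its libraries overlapping those of NOTCH1. In miR-19a cells it was in 3rd place, with libraries between those of POFUT1 and NOTCH3 and overlapping both. Its pseudogenes GXYLT1P1, GXYLT1P2, GXYLT1P3, GXYLT1P6 and GXYLT1P7 had 0 to 1 counts in any library.

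The 3′ UTR of GXYLT1 holds a match to the miR-19a seed, as does that of NOTCH2, and the other 8 genes have no match of 6 bases or more. Both matches are of the 7mer-m8 type, which pairs with bases 2 to 8 of the microRNA. The mature microRNA (RefSeq, GRCh38.p14, chr13:91350939-91350961, plus strand) is shown with its seed in capitals, and each site (GENCODE v29, GRCh38, minus strand) is shown in a window of 30 bases with the match in capitals. They are printed because the seed match is the feature by which miR-19a is known to find the messages it lowers.
hsa-miR-19a-3p: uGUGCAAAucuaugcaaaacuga
GXYLT1 site: gaggatggtggTTTGCACctgttcctgaag
NOTCH2 site: gtgcttttggtTTTGCACctctccgtgatt
The GXYLT1 match is at chr12:42082233-42082239, bases 5547 to 5553 of a UTR of 5941 nt, close to its end. The NOTCH2 match is at chr1:119914822-119914828, bases 478 to 484 of a UTR of 3753 nt. GXYLT1 has 2 weaker matches of 6 bases upstream of it. With the longest annotated UTR of each gene, 1 of the 10 genes keeps a site of 7 bases or more, since the strongest NOTCH2 match is then of 6 bases.

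Among 10564 tested genes with an annotated UTR, 18.4% had a site of 7 bases or more, and 39.5% of these were called lower and 21.9% higher in miR-19a. The 7mer-m8 was the strongest site of 771 tested genes, of which 286 were called lower and 185 higher, with a median log2 fold change of -0.06. GXYLT1 had the largest rise of the 771, ahead of NPTX1 at 1.52, and NOTCH2 was in place 193. GXYLT1 was selected for its rise, so its place among these genes is a description and says nothing of its site. A seed match is a description of the letters and was not tested as a binding site.

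**Figure D2:**
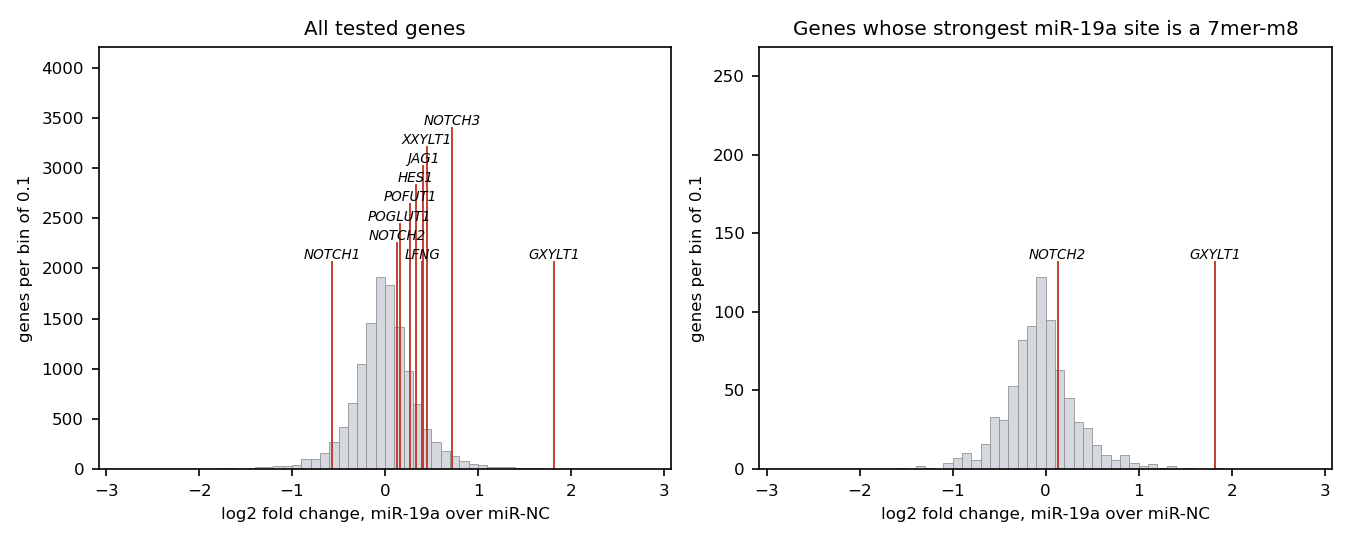
Number of genes (vertical axis) by log2 fold change in bins of 0.1 (horizontal axis), for all tested genes on the left and for the 771 genes whose strongest miR-19a site is a 7mer-m8 on the right, with red lines at the Notch pathway genes. GXYLT1 at 1.82 stands beyond the bulk of both distributions, NOTCH2 at 0.13 within it.

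The enzymes before and after GXYLT1 in the O-glucose chain had smaller fold changes. XXYLT1 (ENSG00000173950, chr3:195068279-195271167, minus strand), which adds the outer xylose, had 28, 29.2 and 27.5 CPM in miR-19a, against 21.3, 22.1 and 18.4 CPM in miR-NC. Every miR-19a library was above every miR-NC library, and the gene rose by 0.45 on the log2 scale (SE 0.077, adjusted p = 1.1e-06 in edgeR). POGLUT1 (ENSG00000163389, chr3:119468938-119494708, plus strand), which adds the glucose itself, had 22.4, 20.6 and 20.6 CPM in miR-19a, against 20.2, 18.2 and 18.3 CPM in miR-NC. The groups were narrowly apart, and the log2 fold change of 0.16 (SE 0.082, 95% interval 0.00 to 0.32) did not pass (edgeR adjusted p = 0.0954). By FPKM, the level of GXYLT1 in miR-19a (18.9 ± 1.22) was above those of XXYLT1 (5.14 ± 0.163) and POGLUT1 (2.95 ± 0.147), whereas in miR-NC the GXYLT1 level was 5.42 ± 0.587, the XXYLT1 level 3.8 ± 0.335 and the POGLUT1 level 2.65 ± 0.163 (SD, n = 3 each). XXYLT1 and POGLUT1 kept their order in both groups.

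GXYLT2, the paralog with the same activity, was under the filter, with 60, 67 and 79 counts in miR-19a, against 35, 62 and 33 counts in miR-NC. One miR-NC library reached into the miR-19a range. In a fit with no filter its log2 fold change was 0.60 (SE 0.19, edgeR adjusted p = 0.00999). Of the summed FPKM of both xylosyltransferases, GXYLT1 made up 94.5 ± 0.812% in miR-19a and 88.1 ± 4.44% in miR-NC (SD, n = 3 each), so GXYLT1 was the main form in every library.

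In the O-fucose arm, POFUT1 (ENSG00000101346, chr20:32207880-32238667, plus strand), which adds fucose to the EGF repeats, had 133.7, 129.9 and 127.9 CPM in miR-19a, against 103.3, 107.1 and 114.1 CPM in miR-NC. It rose by 0.27 (SE 0.045, edgeR adjusted p = 4.8e-07), and its groups did not overlap. A microRNA gene on the same strand shares 53 exon bases with POFUT1. LFNG (ENSG00000106003, chr7:2512529-2529177, plus strand), the Fringe enzyme that extends the fucose, was at a low level, with 9.01, 9.78 and 10 CPM in miR-19a, against 6.69, 8.5 and 6.61 CPM in miR-NC. The highest miR-NC library came close to the lowest miR-19a library, and LFNG rose by 0.40 with a wider error (SE 0.13, edgeR adjusted p = 0.00636). LFNG was the lowest of the 10 genes by FPKM in both groups, with libraries overlapping those of POGLUT1 in miR-19a.

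The receptors moved in different directions. NOTCH1 (ENSG00000148400, chr9:136494433-136545786, minus strand) had 35.2, 38.3 and 43 CPM in miR-19a, against 56, 58.3 and 59.2 CPM in miR-NC. All 3 miR-19a libraries were below all miR-NC libraries, and NOTCH1 fell by 0.57 on the log2 scale (SE 0.061, edgeR adjusted p = 1.8e-12). NOTCH3 (ENSG00000074181, chr19:15159038-15200981, minus strand) had 146.8, 149.3 and 160.2 CPM in miR-19a, against 93.1, 97.6 and 85.5 CPM in miR-NC. It rose by 0.72 (SE 0.046, edgeR adjusted p = 8.5e-22), the largest change of the 9 genes other than GXYLT1. NOTCH2 (ENSG00000134250, chr1:119911553-120069626, minus strand) had 111.9, 119.2 and 116.0 CPM in miR-19a, against 103.7, 105.8 and 108.1 CPM in miR-NC. Its groups were apart by a small gap, and its rise of 0.13 (SE 0.045, edgeR adjusted p = 0.0128) did not pass in limma on log2(FPKM + 1), at an adjusted p of 0.103. Nor did it pass when miR-19a replicate 2 (edgeR adjusted p = 0.0908) or miR-NC replicate 1 (0.069) was left out. How reads shared with the near-identical NOTCH2NL copies were counted is not stated in the labels, so the NOTCH2 count is uncertain to that extent.

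Set side by side per length, the receptors differed in their shares of the summed receptor FPKM. NOTCH3 made up 61.9, 60.6 and 61.6% of the sum in miR-19a, against 47, 47.6 and 43.7% in miR-NC. NOTCH1 made up 13.2, 13.9 and 14.7% in miR-19a, against 25.2, 25.3 and 27% in miR-NC. NOTCH2 made up 24.7, 25.3 and 23.4% in miR-19a, against 27.4, 27 and 29% in miR-NC. For all 3 receptors the groups did not overlap, and each exact permutation test gave p = 0.10, two-sided, the smallest value that 3 against 3 samples allow. The differences, miR-19a minus miR-NC, were 15.3 percentage points for NOTCH3, -11.9 for NOTCH1 and -3.32 for NOTCH2. NOTCH4 held 0.204 ± 0.0515% in miR-19a and 0.282 ± 0.139% in miR-NC, from 4 to 15 counts a library. The summed level was 27.8 ± 1.28 FPKM in miR-19a and 22.6 ± 0.478 FPKM in miR-NC (exact permutation p = 0.10). The deposited FPKM of NOTCH2 corresponds to a length of 16807 nt, longer than the 11389 nt of its annotated transcript, so the shares depend on the length used. With GENCODE v29 transcript lengths NOTCH2 made up 31.8 ± 1.19% in miR-19a and 35.4 ± 1.16% in miR-NC, and NOTCH3 made up 54.9 ± 0.742% in miR-19a and 40.5 ± 2.01% in miR-NC. On CPM, with no length at all, NOTCH2 made up 37.7 ± 1.3% in miR-19a and 41.3 ± 1.2% in miR-NC, and NOTCH3 made up 49.5 ± 0.805% in miR-19a and 35.9 ± 1.91% in miR-NC. In miR-NC cells NOTCH3 was thus above NOTCH2 per length but below it on CPM. The direction of each receptor's difference in share between the groups was kept in all 3 settings.

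**Figure D3:**
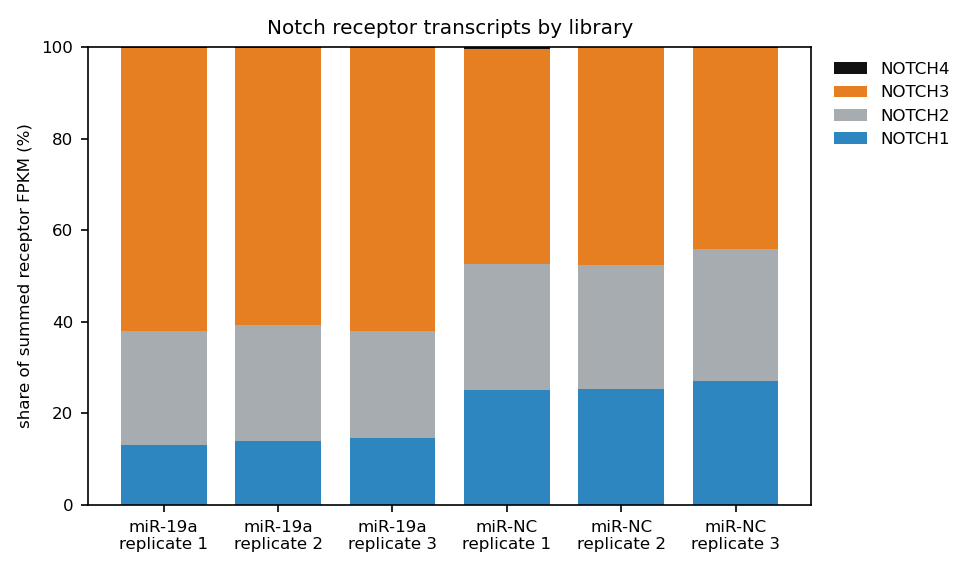
Share of each receptor in the summed receptor FPKM (vertical axis, percent) for each library (horizontal axis), stacked to 100%. The NOTCH3 band is wider in the 3 miR-19a libraries (60.6 to 61.9%) than in the 3 miR-NC libraries (43.7 to 47.6%), and the NOTCH1 band is narrower.

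JAG1 (ENSG00000101384, chr20:10637684-10673999, minus strand), a ligand of these receptors, had 341.6, 332.1 and 352.0 CPM in miR-19a, against 253.4, 269.5 and 250.9 CPM in miR-NC. Every miR-19a library exceeded every miR-NC library, and JAG1 rose by 0.41 (SE 0.039, edgeR adjusted p = 2.4e-14). It was the highest of the 10 genes in both groups, at 53.6 ± 1.53 FPKM in miR-19a and 40.9 ± 1.43 FPKM in miR-NC (SD, n = 3 each). An antisense gene that shares 79 exon bases with JAG1 had 0 to 4 counts. The related ligand JAG2 had 35.4, 36.6 and 39.8 CPM in miR-19a, against 43.7, 47.3 and 43.9 CPM in miR-NC. JAG2 fell by 0.27 (SE 0.062, edgeR adjusted p = 2.0e-04), the direction opposite to JAG1, and its groups did not overlap. DLL3, a ligand-like protein of the Delta family, averaged 14.7 ± 0.861 CPM in miR-19a and 19.2 ± 3.94 CPM in miR-NC (SD, n = 3 each). It fell by 0.39 (SE 0.098, edgeR adjusted p = 6.5e-04), and without miR-NC replicate 1, its highest library, its change was -0.22 and did not pass (adjusted p = 0.0873). Nor did it pass in limma on log2(FPKM + 1) (adjusted p = 0.0556) or on log2(FPKM + 0.1) (adjusted p = 0.0547). Of the 7 other receptors and ligands, 3 passed the filter, of which 2 fell, none rose and 1 was not called, with a median log2 fold change of -0.27. Of all tested genes, 24.9% rose and 23.5% fell, and a count over 3 genes is a description alone. DLL1, DLL4 and DLK1 had at most 19 counts in any library.

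HES1 (ENSG00000114315, chr3:194136145-194138732, plus strand), the transcriptional repressor best known as a Notch target, had 16.5, 17 and 18.1 CPM in miR-19a, against 13.7, 11.7 and 15.6 CPM in miR-NC. It rose by 0.33 (SE 0.095, edgeR adjusted p = 0.00265). The highest miR-NC library lay just under the lowest miR-19a library. The HES1 promoter is shown (RefSeq, GRCh38.p14, chr3:194135898-194136197, plus strand). It was chosen as the only promoter of the 10 genes with more than 1 copy of the letters TGGGAA or TTCCCA. These letters, given in capitals, were searched as the core bound by RBPJ, read on either strand.
HES1 promoter: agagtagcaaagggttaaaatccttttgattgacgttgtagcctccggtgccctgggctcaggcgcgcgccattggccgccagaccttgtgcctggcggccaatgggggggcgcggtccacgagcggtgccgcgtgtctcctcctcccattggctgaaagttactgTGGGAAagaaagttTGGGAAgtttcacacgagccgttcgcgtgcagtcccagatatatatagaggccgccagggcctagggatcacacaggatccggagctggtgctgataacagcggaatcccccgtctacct
The copies begin 84 and 70 bases before the annotated start. Of 35116 promoters of the same length, 24% held the letters at least once and 3.8% held them 2 or more times. The 10 genes matched 11 promoters, of which 4 held the letters: those of HES1 and POGLUT1 and both of LFNG. Only these exact letters were searched, so any RBPJ site with other letters is not marked. A match says nothing of binding in these cells.

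The other targets did not share one direction. Of 12 target genes besides HES1, 8 passed the filter, 1 of them (HES7) through the miR-NC libraries alone. Of the other 7, 2 rose, 4 fell and 1 was not called, with a median log2 fold change of -0.16, where 24.9% of all tested genes rose and 23.5% fell. SOX9, a transcription factor of epithelial progenitors, had 37.4, 43.4 and 46.4 CPM in miR-19a, against 21.7, 24.2 and 22.1 CPM in miR-NC. It rose by 0.90 (SE 0.072, edgeR adjusted p = 2.2e-17), and the groups were far apart. HES4, a relative of HES1, had 22.5, 26.5 and 28.5 CPM in miR-19a, against 21.7, 21.7 and 21.4 CPM in miR-NC. Its rise of 0.26 (SE 0.079, edgeR adjusted p = 0.00457) was 0.18 without miR-19a replicate 3, its highest library, and then did not pass (adjusted p = 0.0786).

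HES7, a repressor known from the segmentation clock, had 17, 20 and 18 counts in miR-19a, against 42, 46 and 49 counts in miR-NC, a log2 fold change of -1.38 (SE 0.26). Its mean was 0.573 FPKM in miR-19a and 1.52 FPKM in miR-NC, so it passed the filter through the miR-NC libraries, and its change is given as a description with no test. NRARP, a feedback inhibitor of Notch also at a low level, had 4.29, 3.95 and 3.16 CPM in miR-19a, against 7.71, 6.31 and 7.57 CPM in miR-NC, a fall of 0.93 (SE 0.16, edgeR adjusted p = 1.3e-06). The NRARP groups did not overlap, which was so for 54% of all tested genes. HEYL had 4.54, 3.77 and 3.33 CPM in miR-19a, against 5.3, 4.93 and 5.79 CPM in miR-NC, a log2 fold change of -0.46 (SE 0.17, edgeR adjusted p = 0.0179). This call was lost under DESeq2 (adjusted p = 0.0566), in limma on log2(FPKM + 0.1) (adjusted p = 0.0558), and on leaving out miR-19a replicate 2 (0.0535), miR-19a replicate 3 (0.107) or miR-NC replicate 3 (0.0664). HEY1, named after its values were seen, was under the filter with 28, 47 and 47 counts in miR-19a, against 19, 15 and 15 counts in miR-NC. Its log2 fold change with no filter was 1.24 (SE 0.27), given as a description with no test. HES5 had 0 counts in all 6 libraries.

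**Figure D4:**
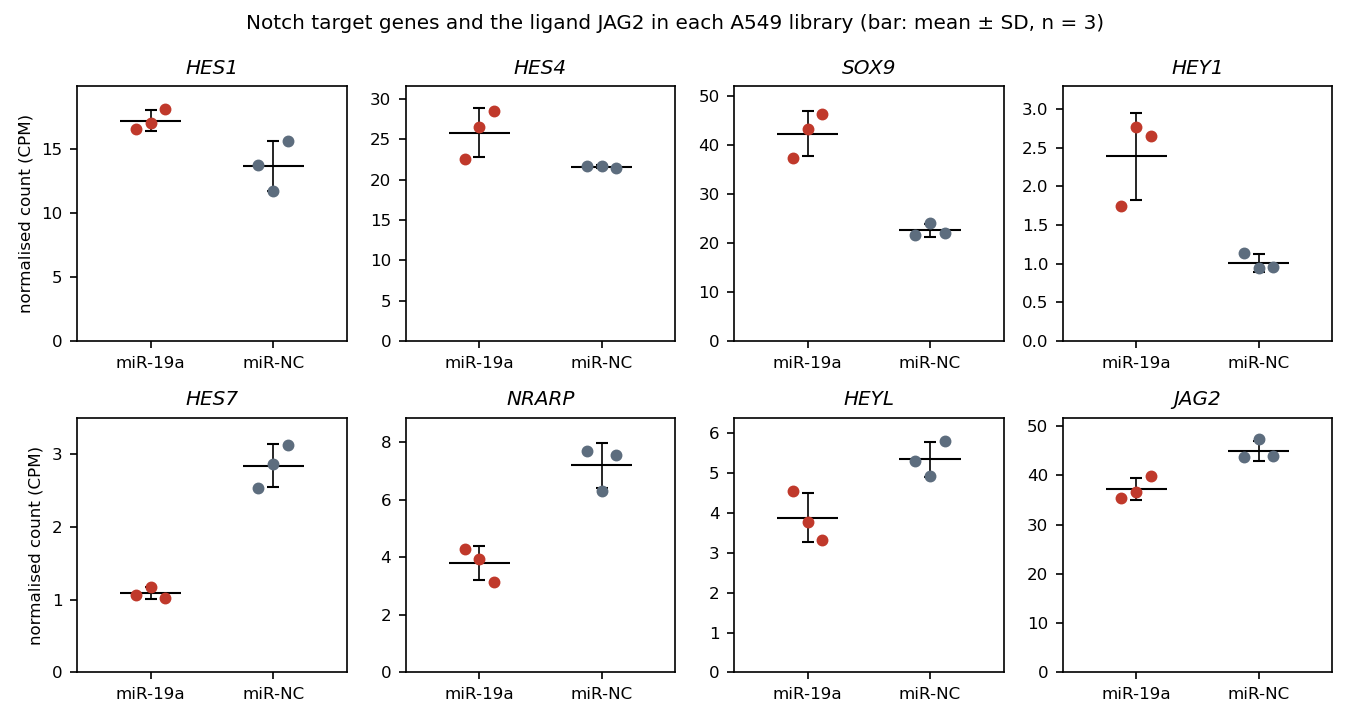
Normalised counts (CPM, vertical axis, each from 0) of 7 target genes and the ligand JAG2 in the 3 miR-19a and 3 miR-NC libraries, with the mean and SD as bars (n = 3). HES1, HES4, SOX9 and HEY1 are higher in miR-19a, and HES7, NRARP, HEYL and JAG2 are lower. HEY1 was under the filter and was picked after its values were seen. The tested targets CCND1 (log2 fold change -0.16) and MYC (-0.20), both called lower, and CDKN1A (0.02, not called) are not drawn.

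The machinery that cuts the receptor was mostly higher. Of 9 cleavage genes, all tested, 7 rose, 1 fell and 1 was not called, with a median log2 fold change of 0.34, where 24.9% of all tested genes rose. ADAM17, a membrane protease that can shed the receptor ectodomain, had 146.0, 146.1 and 138.3 CPM in miR-19a, against 80.7, 79.2 and 82.7 CPM in miR-NC. It rose by 0.83 (SE 0.045, edgeR adjusted p = 3.0e-25), the largest change of the list. FURIN, the protease that cuts the receptor on its way to the surface, had 148.6, 146.4 and 146.1 CPM in miR-19a, against 95.9, 107.8 and 93.7 CPM in miR-NC, a rise of 0.57 (SE 0.046, edgeR adjusted p = 2.6e-17). APH1B, a subunit of the γ-secretase that releases the intracellular part, had 55.1, 57.8 and 53.5 CPM in miR-19a, against 37.0, 32.8 and 34.2 CPM in miR-NC, a rise of 0.68 (SE 0.061, edgeR adjusted p = 2.8e-15). PSENEN, another γ-secretase subunit, fell by 0.31 (SE 0.053, edgeR adjusted p = 1.2e-06), with 55.1 ± 1.24 CPM in miR-19a and 68.3 ± 2.34 CPM in miR-NC.

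Genes of EGF-repeat glycosylation and its sugar supply were mixed, with 6 higher, 3 lower and 4 not called of 13 tested among 15, and a median log2 fold change of 0.06, where 24.9% of all tested genes were higher and 23.5% lower. UXS1, which makes the UDP-xylose that GXYLT1 uses, had 103.8, 106.0 and 100.5 CPM in miR-19a, against 74.9, 75.6 and 77.8 CPM in miR-NC, a rise of 0.44 (SE 0.047, edgeR adjusted p = 2.0e-12). UGDH, which makes the precursor of UDP-xylose, fell by 0.20 (SE 0.040, edgeR adjusted p = 2.2e-05), with 222.6, 231.9 and 228.5 CPM in miR-19a, against 249.7, 275.8 and 258.2 CPM in miR-NC. These neighbouring steps of xylose supply thus went in opposite directions, each with groups that did not overlap. POGLUT2, another O-glucosyltransferase, rose by 0.53 (SE 0.12, edgeR adjusted p = 1.9e-04), and the galactosyltransferase B4GALT1 rose by 0.40 (SE 0.039, edgeR adjusted p = 4.1e-14). EOGT, which puts N-acetylglucosamine directly on EGF repeats, fell by 0.40 (SE 0.097, edgeR adjusted p = 3.5e-04). GFUS, which makes GDP-fucose, had a log2 fold change of -0.16 (SE 0.060, edgeR adjusted p = 0.0262), which did not pass with no filter, under DESeq2, or without any one of miR-19a replicate 1, miR-19a replicate 2, miR-NC replicate 1 and miR-NC replicate 3 (adjusted p between 0.0573 and 0.167 in these 6 fits).

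Of 13 genes of ligand and receptor endocytosis and turnover, 9 were tested. Of these, 3 rose, none fell and 6 were not called, with a median log2 fold change of 0.05. Over all tested genes 24.9% rose and 23.5% fell, and the count over 9 genes is a description alone. FBXW7, the ubiquitin ligase subunit that marks the intracellular part of Notch for degradation, was at 21.0 ± 0.541 CPM in miR-19a and 13.5 ± 0.847 CPM in miR-NC (SD, n = 3 each), a rise of 0.64 (SE 0.088, edgeR adjusted p = 6.2e-09). DTX4, a ubiquitin ligase of the Deltex family, rose by 0.63 (SE 0.099, edgeR adjusted p = 1.4e-07). NUMB, an endocytic adaptor known as a Notch inhibitor, rose by 0.24 (SE 0.048, edgeR adjusted p = 2.1e-05).

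In the nuclear complex and its corepressors, 21 of 23 genes passed the filter, 1 of them (TLE2) through the miR-19a libraries alone. Of the other 20, 3 rose, 5 fell and 12 were not called, with a median log2 fold change of 0.01. Over all tested genes 24.9% rose and 23.5% fell, and the count over 20 genes is a description alone. RBPJ, named after its values were seen, had 29.7, 30.2 and 30.6 CPM in miR-19a, against 28.2, 30.1 and 29.8 CPM in miR-NC, a log2 fold change of 0.04 (SE 0.068, edgeR adjusted p = 0.669), and its groups overlapped. MAML1, the coactivator that binds Notch and RBPJ together, had 33.2, 35.4 and 34.6 CPM in miR-19a, against 49.5, 47.0 and 51.1 CPM in miR-NC, a fall of 0.51 (SE 0.061, edgeR adjusted p = 6.9e-11). The acetyltransferase KAT2B rose by 0.78 (SE 0.072, edgeR adjusted p = 8.4e-15). TLE2, a corepressor of the Groucho family, had 6.81 ± 1.03 CPM in miR-19a and 3.22 ± 1.27 CPM in miR-NC (SD, n = 3 each), a log2 fold change of 1.09 (SE 0.18). Its mean was 1.67 FPKM in miR-19a and 0.797 FPKM in miR-NC, so it is described with no test. The deacetylase HDAC1 rose by 0.29 (SE 0.044, edgeR adjusted p = 1.1e-07). The corepressors CTBP1 and SPEN each fell by 0.30, with edgeR adjusted p = 1.3e-06 for CTBP1 (SE 0.052) and 9.8e-07 for SPEN (SE 0.050).

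**Figure D5:**
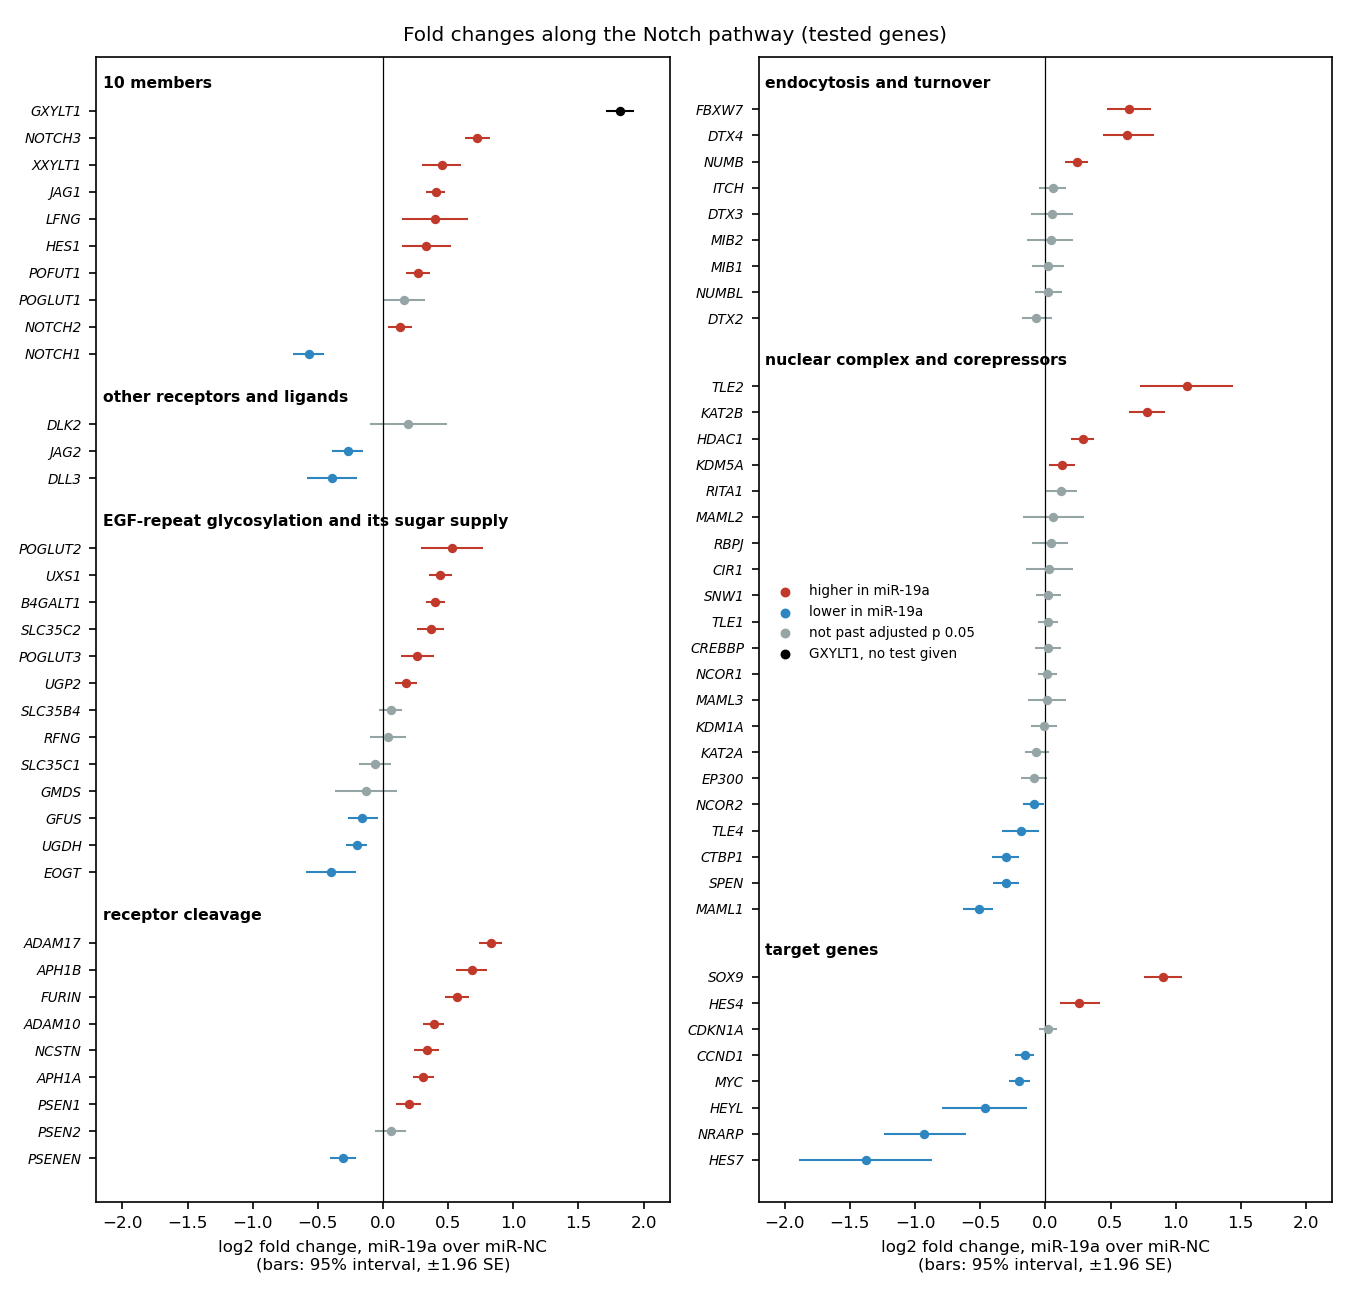
Log2 fold change, miR-19a over miR-NC (horizontal axis), of the 10 genes and of the tested genes of 6 Notch pathway lists (rows), with 95% intervals as bars and the edgeR call as colour. GXYLT1 is in black, with no test given. HES7 passed the filter through the miR-NC libraries alone and TLE2 through the miR-19a libraries alone, so their colours are descriptions and no test. In receptor cleavage 7 of 9 genes carry the colour for higher in miR-19a, and the target genes reach from -1.38 for HES7 to 0.90 for SOX9.

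Sites for miR-19a in the wider pathway lay in genes of both directions. Among 73 tested genes of the set and the lists with an annotated UTR, 16 had a site of 7 bases or more, of which 7, GXYLT1 included, were higher, 6 fell and 3 were not called, with a median log2 fold change of 0.04. Over all tested genes with such a site, 21.9% were higher and 39.5% lower, and the median was -0.07. The count and the median of the 16 genes include GXYLT1, which was selected for its rise, so they are a description. Among list genes past the filter whose strongest site is a 7mer-m8, those with the largest rise and the largest fall are shown with the match in capitals (GENCODE v29, GRCh38, plus strand), to set beside the GXYLT1 and NOTCH2 sites above.
SOX9 site: gctgggaaacaTTTGCACtcttttagtgca
MAML1 site: ttggtagttatTTTGCACcagcagtgcctt
The SOX9 match is at chr17:72125262-72125268 and the MAML1 match at chr5:179776397-179776403. The 7 matched letters are the same in all 4 windows because the type of site fixes them. SOX9 rose by 0.90 and MAML1 fell by 0.51, and they were picked for these opposite changes. NEURL1B, a ubiquitin ligase of ligand endocytosis named after its values were seen, was under the filter and has 2 matches of this type. It had 41, 46 and 41 counts in miR-19a, against 67, 90 and 93 counts in miR-NC. Its log2 fold change with no filter was -1.03 (SE 0.18), given as a description with no test.

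The genes whose pattern over the 6 libraries was nearest to that of GXYLT1, by the root mean square difference of centred log2 CPM, were SLC2A3 (0.111), IL6R (0.116), GPAT3 (0.120), HAS2 (0.121) and ARID3A (0.123). Their log2 fold changes were 2.02, 1.66, 1.67, 1.69 and 1.66. For HES1 the nearest were ERVK13-1 (0.041), CCDC167 (0.049), CWC15 (0.057), MTFR2 (0.059) and CENPK (0.060). With 2 groups in the series, such likeness includes the difference between the groups itself. These are levels in bulk RNA, where fewer cells with a transcript and less RNA per cell cannot be told apart.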

How the data were processed

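Libraries of poly(A) RNA were read from both ends at 150 nt (per the labels' protocols), and the submitters' processing notes name bcl2fastq 2.17.1.14. These notes leave the aligner, counter, strand setting, build and annotation not given in the sources used here. Whole-number counts, not normalized, and FPKM values make up the deposited table. The file headers name the FPKM columns as such, while the count columns carry a sample name alone. The deposited FPKM equal counts over gene length and library total, since the length they imply varied by at most 0.0742% between libraries over 5148 genes.

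The set and the 6 pathway lists were chosen with earlier results of these data known. Symbols were matched for 39538 identifiers in a gene name table and for 12800 more in GENCODE v29. The 12452 genes averaging 1 FPKM or more across all 6 libraries were tested, two-sided, with edgeR 4.0.16 in R 4.3.3 (quasi-likelihood test, TMM factors, Benjamini-Hochberg adjustment over all tested genes). SE is |log2 fold change| divided by the root of F, an interval is 1.96 SE either way, and CPM are TMM-scaled. 3′ UTRs were taken from the GENCODE v29 transcript with the longest coding sequence and searched for TTTGCACA (8mer), TTTGCAC (7mer-m8), TTGCACA (7mer-A1) and TTGCAC (6mer). Promoters run 250 bases before to 50 after a RefSeq start. In each list, up to 3 genes per direction past the threshold with the largest change were named, with GXYLT2, NOTCH4, JAG2 and the 5 genes nearest in pattern to GXYLT1 and to HES1. Alternatives used limma 3.58.1, DESeq2 1.42.0, other factors, other filters, a replicate block and each library left out.

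Within groups, libraries differed by more than sampling noise. In a simulation with the library sizes of this comparison (12452 genes), edgeR found 40, 45, 49 and 49 of the 50 genes simulated at each of 1.25, 1.5, 2 and 4 fold, and made 10 false calls. Every simulated gene had the same biological coefficient of variation (0.0352), and 200 genes were changed, where 48.4% were called in the data. These counts therefore do not carry over directly to the data.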

Additional observations from a re-analysis of the deposited data

How the results depend on the processing

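Of 512 alternative values for 35 tested genes (the 9 other than GXYLT1 and the tested list genes that the naming rule takes), 493 stayed on the same side of the threshold, 19 no longer passed (for NOTCH2, DLL3, GFUS, HEYL and HES4), and none reversed. The list genes other than JAG2 were named because they had passed the threshold with the largest changes. The tally, which also holds HES7 and TLE2, therefore describes these genes and is no measure for the rest. The labels number the samples of each group 1 to 3, but same-numbered libraries did not deviate together (correlations 0.01, 0 and -0.03), and with a replicate block 8 of the 9 genes other than GXYLT1 were called, as without it. With a mean FPKM of at least 5, fewer genes were tested and 5 of the 9 were called, with 1 call in endocytosis and turnover and 4 among the targets. These 5 (NOTCH2, NOTCH3, JAG1, POFUT1 and HES1) were the only ones of the 9 still tested. NOTCH1, XXYLT1 and LFNG, called in the main fit, were under this stricter filter. In limma, with either pseudocount, 1 of the other receptors and ligands was called, and with each library left out in turn 1 to 2 were. The log2 fold change of GXYLT1 was 1.64 in limma on log2(FPKM + 1), where the added 1 lowers fold changes, and 1.77 to 1.91 with a library left out. The difference in NOTCH1 share was -9.95 percentage points on CPM and -10.7 with GENCODE v29 transcript lengths, an alternative chosen after seeing the data, and that of NOTCH3 was 13.6 on CPM. With the longest annotated UTR, 1 of the 10 genes had a site of 7 bases or more. Low counts limit LFNG, HES7, HEYL, HEY1, GXYLT2 and NOTCH4, and 16 of 79 list genes were under the filter.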
